A study of Mus musculus with 32 samples.

Results

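Islet endothelial cells (ECs) at baseline were examined in 4 samples of CD31+ cells sorted from pancreatic islets of mice that had received no doxycycline (No Dox). They were set against the 4 No Dox samples of β cells and the 4 No Dox samples of macrophages (MΦs), each kept as its own group, so that 12 of the 32 samples of the series entered the comparison. The samples were chosen by cell type and treatment alone, and CD31 (Pecam1), CD11b (Itgam), and the Ins1 promoter of the GFP transgene set the sort, so that these 3 genes are no finding. The study profiled β cells, ECs, and MΦs of islets in which β cell VEGF-A can be switched on and off, to identify signals that pass among the cells as β cells are lost and recover. All groups carried the same 3 transgenes, MIP-GFP; RIP-rtTA; TetO-VEGF-A. RIP-rtTA puts the doxycycline-dependent activator under a rat insulin promoter, TetO-VEGF-A is its target, and MIP-GFP marks β cells through the mouse Ins1 promoter. At No Dox the VEGF-A transgene had not been induced, and whether it leaked was not tested. ECs were the CD31+ cells, MΦs the CD11b+ cells, and β cells the GFP+ cells outside both of those gates, and the islets of several adult mice were pooled for a sort. The p-values therefore measure the spread between such pools.

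Islet ECs form a dense bed of fenestrated capillaries, whose thin walls let hormones and glucose pass quickly between β cells and blood. β cells secrete VEGF-A, which acts through VEGFR2 (Kdr) on ECs and keeps these capillaries numerous and fenestrated. In return ECs lay down the vascular basement membrane and release growth factors toward β cells. VE-cadherin (Cdh5) joins neighbouring ECs to each other and is, with Kdr, among the defining markers of the endothelium.

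Expression was read as the score of each gene, the authors' scaled expression value rounded to a whole number, with 1 as the lowest score. The table held 22850 genes, and the summed scores of the No Dox samples ran from 32377619 to 53441769. The 4 EC samples were alike, with rank correlations of 0.985 to 0.992 across the 16380 genes tested and a median SD of 0.204 on the log2 scale, against 0.578 in β cells and 0.424 in MΦs. Of the 24 endothelial markers, 23 were higher in ECs than in both other cell types, with Kdr and Cdh5 among them, and also Pecam1, which the sort used. The exception was Vwf, the von Willebrand factor gene, which scored 744, 2220, 1101, and 1039 in ECs and 685 to 1365 in MΦs. At 1wk WD, 1 week after doxycycline was withdrawn, all 24 were higher in ECs than in both, with Vwf at 2360 to 4111 in ECs and 493 to 967 in MΦs. Summed over the list, endothelial markers scored 742032 to 806908 in ECs, 2971 to 14490 in β cells, and 4171 to 5367 in MΦs. The markers of the other sorted cell types were low in ECs. Summed scores in ECs were 1894 to 4631 for the 20 β cell markers and 6277 to 6997 for the 20 macrophage markers, of which Mertk alone gave 5032 to 5904. The common leukocyte antigen Ptprc and the macrophage gene Emr1 (F4/80) scored at most 32 and 6 in ECs, and the β cell factor Pdx1 at most 14.

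Some libraries stood apart. β cell replicates 3 and 4 carried pericyte and stromal markers, with scores of the pericyte gene Pdgfrb of 13692 and 49477 against 80 and 66 in replicates 1 and 2. Their 20 β cell markers summed to 2029870 and 778194, against 9616345 and 6478730 in replicates 1 and 2, and their macrophage, lymphocyte, Schwann cell, and islet endocrine sums were above those of replicates 1 and 2. So were their endothelial sums, at 8239 and 14490 against 4832 and 2971. The rank correlations of these 2 libraries with ECs across genes were 0.673 to 0.736, against 0.596 to 0.63 for β cell replicates 1 and 2. Acinar markers, from the exocrine pancreas that surrounds islets, were high in these 2 β cell libraries, in MΦ replicates 2 and 4, and, among ECs, in replicate 2. The acinar gene Cpa1 (carboxypeptidase A1) scored 8952, 177586, 8390, and 5903 in the ECs, and the 18 acinar markers together reached 2219829 in EC replicate 2 against 80768 in the lowest EC sample, 14972015 in MΦ replicate 2, and 2546719 in MΦ replicate 4. MΦ replicate 2 also had the highest β cell and islet endocrine sums among MΦs, at 65042 and 36263 against at most 12672 and 10478 in the others. None of the 18 acinar or 19 stromal markers was called higher or lower in ECs than in both other cell types. The counts over all genes are therefore also given without these 5 libraries, an alternative chosen after these sums were seen, and calls lost without them are named beside most lists. β cell replicate 1, which stayed in, had an acinar sum of 951552, against 47132 in replicate 2. Fewer cells of a type and less RNA per cell cannot be told apart in such bulk samples.

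**Figure D1:**
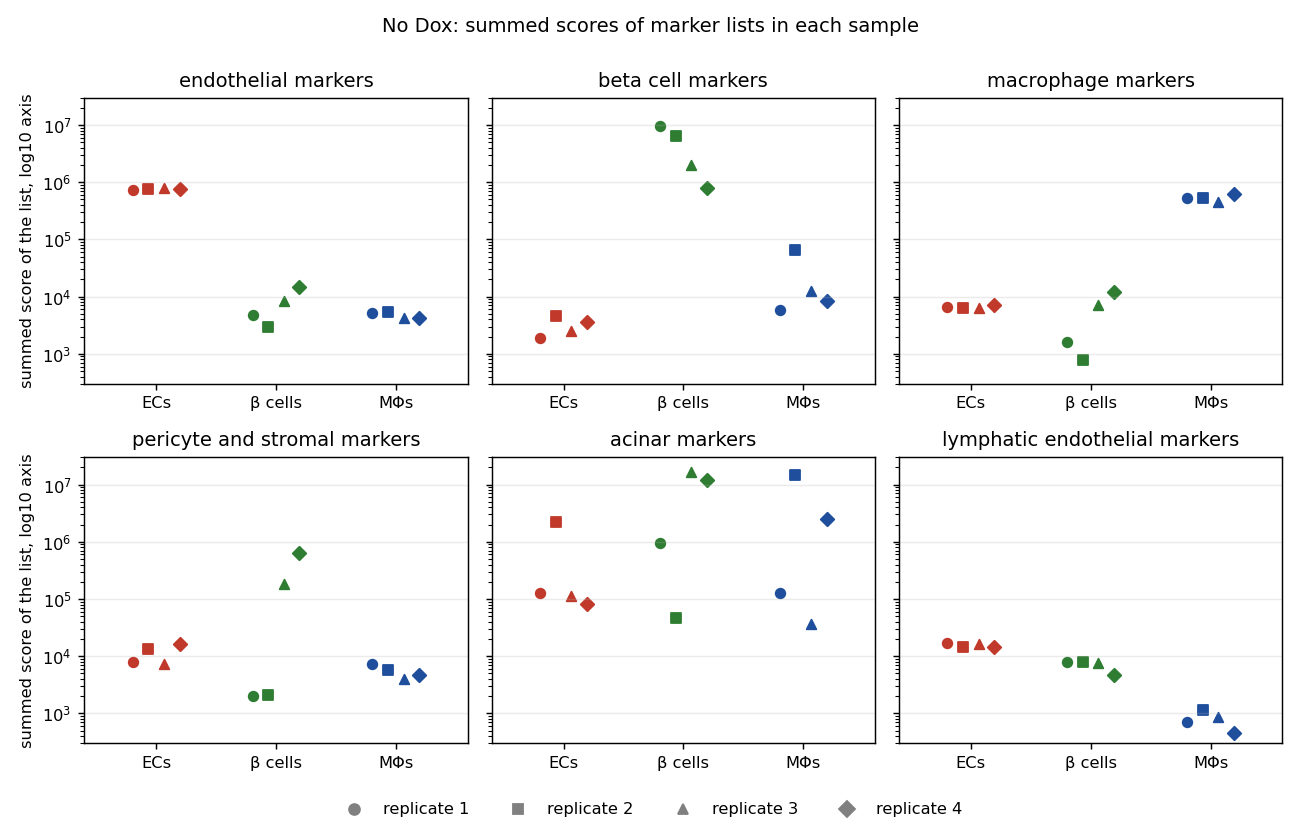
Summed scores (log10 axis) of 6 marker lists in each No Dox sample, with ECs in red, β cells in green, and MΦs in blue, and a symbol for each replicate. The endothelial markers of the 4 EC samples lie between 742032 and 806908, above all other samples, while the acinar markers of EC replicate 2 stand at 2219829 and the stromal markers are high in β cell replicates 3 and 4.

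ECs had a large set of genes of their own in both directions. A gene was called at a fold change of 2 or more with an adjusted p under 0.05 in limma, fitted to log2(score + 1) of the 12 samples. The fit pools each gene's spread over the cell types, so that the spread of the β cell libraries also enters the SEs and p-values against MΦs. A difference from MΦs that did not pass the test is therefore not shown to be absent. Of the 16380 genes tested, 1342 (8.19%) were higher in ECs than in both β cells and MΦs and 1147 (7%) were lower than in both. Against β cells alone, 2704 genes (16.5%) were higher in ECs and 3465 (21.2%) lower. Against MΦs alone, 2600 (15.9%) were higher and 2880 (17.6%) lower. Without regard to the test, all 4 EC samples lay above the 8 others for 2157 genes (13.2%) and below all of them for 1353 (8.26%). Without the libraries that stand apart, which leaves β cell replicates 1 and 2, EC replicates 1, 3, and 4, and MΦ replicates 1 and 3, 1632 genes were higher than in both and 1050 lower, and 1234 and 899 of these were among the 1342 and 1147. The same samples gave 3605 genes higher and 3711 lower in ECs than in β cells, and 3073 higher and 3053 lower than in MΦs. With β cell replicates 3 and 4 as the only β cells, 1263 genes were higher than in both and 1590 lower, so that lower calls outnumbered higher ones. The direction of the β cell comparison depended on scaling. Higher calls were 43.8% of all calls against β cells, and 55.5% after quantile normalization, which moved the median log2 difference of all genes from -0.07 to 0.16.

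**Figure D2:**
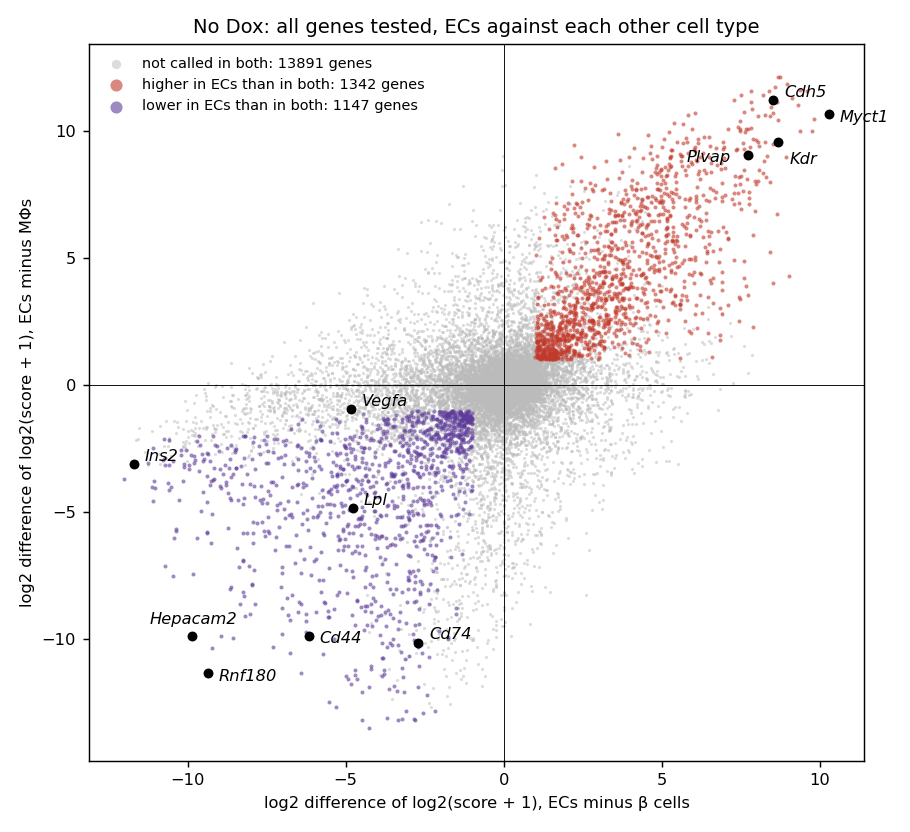
Each point is a gene tested at No Dox, placed by its difference on the log2(score + 1) scale between ECs and β cells (x axis) and between ECs and MΦs (y axis). The 1342 genes higher in ECs than in both are red, the 1147 lower than in both are purple, and Kdr, Cdh5, Myct1, and Plvap lie at the upper right while Hepacam2 and Rnf180 lie at the lower left.

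The comparison was repeated in samples not used above. At 1wk WD, 5 EC samples were tested against 3 β cell and 4 MΦ samples. All 3 of those β cell samples carried stromal RNA, with Pdgfrb at 3980 to 48280, as No Dox β cell replicates 3 and 4 did. Of the 1342 genes higher at No Dox, 1326 could be tested at 1wk WD and 1002 (75.6%) were again higher in ECs than in both, where 8.06% of all genes tested were. Of the 1147 lower genes, 1144 could be tested and 837 (73.2%) were again lower, where 9.57% of all genes were. None was called in the opposite direction.

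Kdr, the VEGF-A receptor of the endothelium at mm9 chr5:76328852-76374483, scored 101250, 92107, 105159, and 96683 in the 4 EC samples. In β cells it scored 285, 180, 378, and 168, and in MΦs 189, 236, 80, and 76. The EC samples were far above all others, with no overlap. The difference was 8.68 ± 0.37 (SE, n = 4 per group) on the log2 scale from β cells (limma, adjusted p = 2.39e-08) and 9.57 ± 0.37 from MΦs (adjusted p = 5.68e-09). In the 5 EC samples at 1wk WD Kdr scored 39326 to 61402, each below all 4 at No Dox, a difference that was not tested here. Cdh5, at mm9 chr8:106625525-106668402, scored 32793, 39050, 42281, and 39169 in ECs. It scored 72, 59, 291, and 91 in β cells and 57, 77, 2, and 4 in MΦs. ECs again lay clear of both groups, by 8.52 ± 0.95 (SE) from β cells (limma, adjusted p = 2.11e-05) and 11.21 ± 0.95 from MΦs (adjusted p = 1.76e-06).

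The genes that separated ECs furthest from both other cell types were not all classical endothelial markers. Ranked by the smaller of the 2 log2 differences, Myct1, a membrane protein gene first known as a MYC target, came first. It lies at mm9 chr10:4739754-4752813 and scored 11110, 11552, 11810, and 10456 in ECs, 15, 5, 33, and 1 in β cells, and 6, 54, 1, and 2 in MΦs. ECs lay above all other samples, as the ranking required, and were higher by 10.29 ± 1.04 (SE) than β cells (limma, adjusted p = 9.61e-06) and by 10.66 ± 1.04 than MΦs (adjusted p = 5.35e-06). Exoc3l2, related to a subunit of the exocyst that carries vesicles to the cell surface, scored 14385, 13548, 12220, and 12217 in ECs against at most 43 in β cells and 6 in MΦs. Cyyr1, a cysteine and tyrosine rich membrane protein gene, scored 165574, 134250, 121755, and 148778 in ECs against at most 629 and 79. Neither gene overlapped between ECs and the other groups, which the ranking also required, and their log2 differences were 9.35 and 8.96 from β cells and 11.62 and 11.87 from MΦs.

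Btnl9, of the butyrophilin family of immunoglobulin-like proteins, scored 45820, 36370, 50576, and 35781 in ECs, at most 374 in β cells, and at most 36 in MΦs. Gja1 (connexin 43), which forms gap junctions, scored 7602, 7931, 8456, and 6939 in ECs, 1, 1, 162, and 192 in β cells, and 1 to 24 in MΦs. Its β cell scores were above the lowest only in replicates 3 and 4, the libraries with stromal markers. Ephb1, an ephrin receptor, and Lrrc3b scored 9378 to 14464 and 5618 to 11498 in ECs and at most 71 and 19 in any other sample. 4930578C19Rik and D630042P16Rik, which have no gene name yet in these files, scored 8917 to 10314 and 9604 to 10916 in ECs and at most 124 and 49 elsewhere. All of these were called higher in ECs than in both. Their EC scores at 1wk WD were 3804 or more, with the lowest in Lrrc3b.

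Some of these genes shared a place in the genome. Robo3, of the roundabout family of guidance receptors, scored 2709, 1506, 1969, and 2210 in ECs, 1, 1, 3, and 1 in β cells, and the lowest score of 1 in all 4 MΦ samples, so that no fold is given against MΦs. Its neighbour Robo4, the roundabout receptor known from endothelium, lies 1645 bases away on the opposite strand and scored 38433, 47749, 42860, and 43788 in ECs, at most 231 in β cells, and at most 28 in MΦs. ECs were higher in Robo4 by 8.59 ± 0.51 (SE) and 11.75 ± 0.51 (limma, adjusted p = 2.21e-07 and 9.52e-09). Esm1 (endocan), a proteoglycan that ECs secrete, scored 43642, 36633, 53952, and 36301 in ECs, 178, 191, 167, and 16 in β cells, and 37, 3, 2, and 15 in MΦs. Esm1, at mm9 chr13:113999867-114008306, lies within the annotated span of Gzmk, chr13:113961816-114016116, on the other strand. Gzmk, whose granzyme K product is known from cytotoxic lymphocytes, scored 10901, 8509, 8220, and 10089 in ECs, at most 47 in β cells, and at most 15 in MΦs. Whether reads were assigned by strand is not given in the sources used here, so that reads of the 2 genes cannot be told apart and the Gzmk score is uncertain. The lymphocyte gene Cd3e scored 1, 2, 10, and 5 in the same ECs. Ces2e, a carboxylesterase gene, scored 3540, 4047, 4623, and 4036 in ECs and at most 28 in any other sample, and it too is uncertain because it lies in a cluster of closely similar genes.

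The promoters of Kdr and of the 3 genes of this ranking that lead it with a window in RefSeq are shown because genes that share a cell type are often searched for shared factor motifs. Each is 300 bases, from 250 before to 50 after the start, from RefSeq on GRCm38.p6, printed 5′ to 3′ along the gene. Capitals mark the letters AGGAAG or its reverse complement CTTCCT, a form of the ETS factor motif. Kdr lies at chr5:75978406-75978705 on the minus strand, Myct1 at chr10:5593478-5593777 on the plus strand, Robo3 at chr9:37433126-37433425 on the minus strand, and Ces2e at chr8:104926010-104926309 on the plus strand.
Kdr: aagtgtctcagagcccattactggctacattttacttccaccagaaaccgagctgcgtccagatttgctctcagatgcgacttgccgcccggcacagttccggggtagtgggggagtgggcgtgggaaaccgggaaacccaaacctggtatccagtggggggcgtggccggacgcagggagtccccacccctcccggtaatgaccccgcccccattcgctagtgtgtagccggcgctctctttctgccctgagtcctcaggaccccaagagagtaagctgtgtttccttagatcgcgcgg
Myct1: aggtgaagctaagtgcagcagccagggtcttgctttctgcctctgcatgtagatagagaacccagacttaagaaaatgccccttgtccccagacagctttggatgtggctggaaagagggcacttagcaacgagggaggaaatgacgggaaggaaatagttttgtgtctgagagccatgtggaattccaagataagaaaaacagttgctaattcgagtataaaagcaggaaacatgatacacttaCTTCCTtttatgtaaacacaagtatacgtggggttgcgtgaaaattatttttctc
Robo3: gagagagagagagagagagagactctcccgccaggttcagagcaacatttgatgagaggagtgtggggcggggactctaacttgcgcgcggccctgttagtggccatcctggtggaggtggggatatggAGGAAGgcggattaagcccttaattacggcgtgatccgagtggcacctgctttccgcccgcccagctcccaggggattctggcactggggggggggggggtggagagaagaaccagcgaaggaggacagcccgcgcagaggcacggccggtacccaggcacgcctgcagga
Ces2e: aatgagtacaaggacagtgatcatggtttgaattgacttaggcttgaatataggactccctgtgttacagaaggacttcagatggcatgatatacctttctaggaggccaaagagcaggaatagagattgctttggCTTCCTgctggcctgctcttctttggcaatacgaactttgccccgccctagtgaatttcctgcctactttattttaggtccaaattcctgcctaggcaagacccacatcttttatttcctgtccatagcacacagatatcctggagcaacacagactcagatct
Myct1, Robo3, and Ces2e each held 1 match and Kdr none. Over all, 36.4% of the 1153 windows of genes higher in ECs held it, 33.4% of the 1041 windows of genes lower in ECs, and 33.8% of the 14304 windows of all genes tested. The SOX motif AACAAT, searched on both strands like all of them, was in 6.85% of the windows of genes higher in ECs and in 6.42% of all windows. The GATA motif AGATAA was in 7.89% and 7.01%. The KLF motif CCACACCC was in 3.56% and 3.78%. The TATA motif TATAAA was in 9.19% and 8.35%. None of these motifs contains another. The windows of genes higher in ECs were thus close to those of all genes in these letters.

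**Figure D3:**
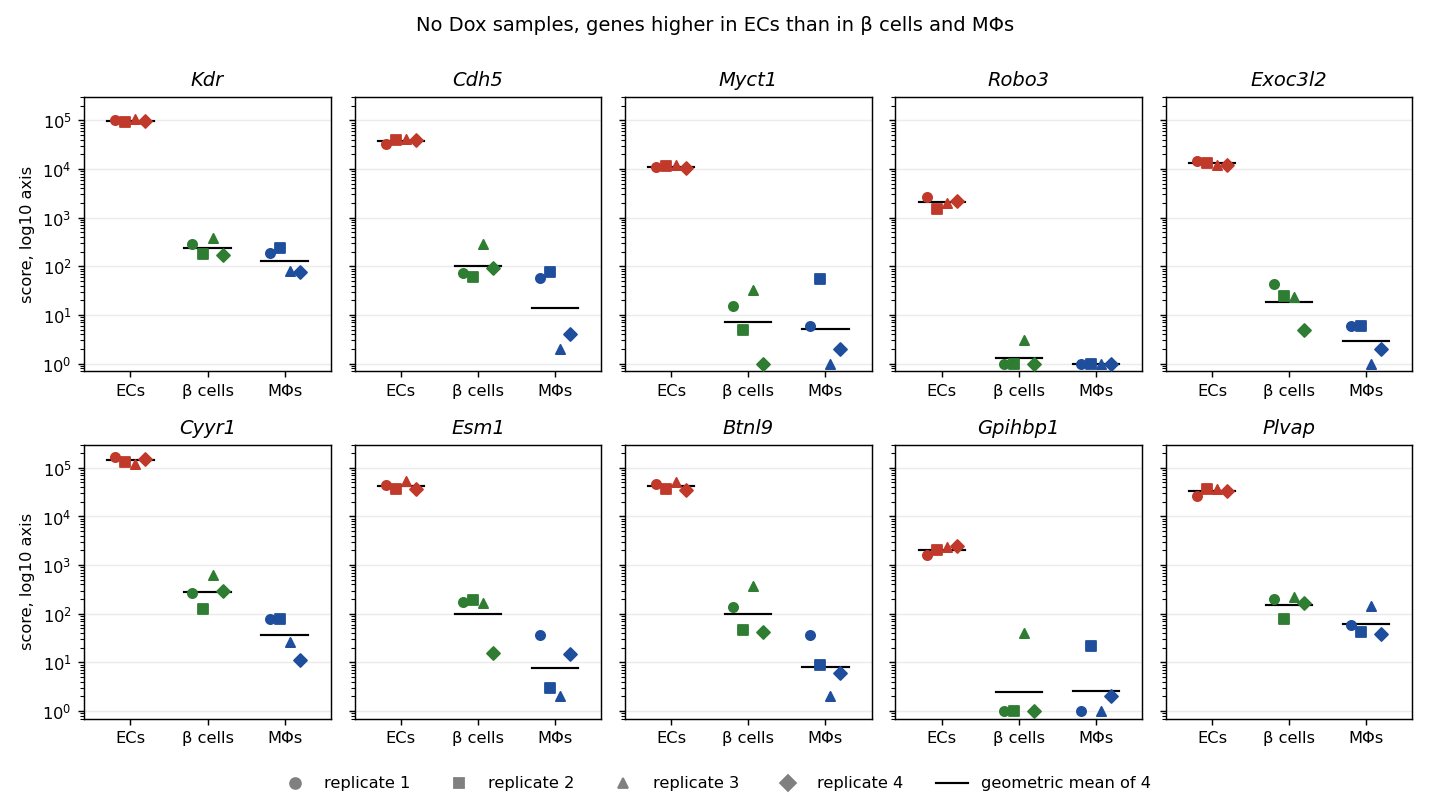
Scores (log10 axis) of 10 genes higher in ECs in each of the 12 No Dox samples, with a symbol for each replicate and a line at the geometric mean of the 4 samples of a cell type. In every panel the 4 EC samples lie above the 8 others, as with Kdr at 92107 to 105159 in ECs and at most 378 elsewhere.

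Receptors of the VEGF and angiopoietin families were higher in ECs than in both other cell types, and most of their ligands were not called higher. Of 15 genes of these families, 9 were higher in ECs than in both other cell types and none was lower, with median log2 differences of 2.47 and 3.79, where the medians over all genes tested were -0.07 and -0.01. All 7 receptors and coreceptors were among the 9. Flt1 (VEGFR1), the decoy and placental growth factor receptor, scored 138669, 127207, 137191, and 131467 in ECs and at most 1076 in β cells and 626 in MΦs. Flt4 (VEGFR3), the receptor of VEGF-C, scored 15564, 13460, 14839, and 12759 in ECs, 68 to 81 in β cells, and 6 to 144 in MΦs. Tek, the angiopoietin receptor, and its partner Tie1 were higher in ECs than in β cells and MΦs, with Tek at 34294, 31426, 34588, and 33816 in ECs and at most 893 elsewhere and Tie1 at 15864 to 18478 in ECs and at most 159 elsewhere. The coreceptors Nrp1 and Nrp2 were less exclusive to ECs, with MΦ scores of 3599 to 5527 and 1200 to 2388 against EC scores of 76483 to 90241 and 23445 to 26076.

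Among the ligands ECs were higher in Angpt2, which loosens Tek signalling, and in Vegfc. Vegfd was called higher too without the libraries that stand apart. Angpt2 scored 1889, 2251, 1993, and 1883 in ECs, 273 to 496 in β cells, and 214 to 421 in MΦs, so that ECs lay above all other samples. Vegfc scored 2299, 2483, 1657, and 2360 in ECs and overlapped β cell replicate 4, at 2171. Vegfa itself scored 249, 281, 191, and 199 in ECs and 9490, 10072, 5925, and 3127 in β cells. ECs were thus lower by 4.83 on the log2 scale than β cells (limma, adjusted p = 2.49e-06), and the difference of -0.95 from MΦs did not pass the test (adjusted p = 0.0783). Angpt1, the activating ligand of Tek, scored 18 to 77 in ECs and 981 and 1517 in the 2 β cell libraries with stromal markers, against 22 and 4 in the other 2.

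Transcription factors of the endothelial programme were shared with MΦs in part. Of 30 such factors, 17 were higher in ECs than in both and none was lower, with median log2 differences of 5.01 from β cells and 3.80 from MΦs. Erg, an ETS factor that holds endothelial identity, scored 20886, 22530, 20825, and 22428 in ECs, 69 to 238 in β cells, and 29 to 43 in MΦs. It was higher by 7.37 than in β cells and by 9.29 than in MΦs (limma, adjusted p = 2.39e-08 and 1.63e-09). The SoxF factors Sox7, Sox17, and Sox18, which act in vessel growth and arterial fate, scored 6250 to 9777 in ECs and at most 105 in any other sample. Gata2, a zinc finger factor of endothelium and blood, scored 4513, 4947, 6211, and 5527 in ECs and at most 48 elsewhere.

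Fli1, Lmo2, and Mef2c did not set ECs apart from MΦs. Fli1, the ETS factor closest to Erg, scored 9360, 8807, 8989, and 10288 in ECs and 13743, 10774, 12960, and 11234 in MΦs, with a log2 difference of -0.37 that did not pass the test (limma, adjusted p = 0.742). All 3 were higher in ECs than in β cells. Klf2 and Klf4, which respond to flow, scored 5885 to 8382 and 13252 to 17582 in ECs and 2110 to 3893 and 7563 to 12644 in MΦs. The samples did not overlap, but the log2 differences of 1.27 and 0.64 did not pass the test (adjusted p = 0.303 and 0.177). Lyl1, which is close to Tal1, was lower in ECs than in MΦs by 4.90 on the log2 scale, while Tal1 scored 1999, 2007, 2146, and 1784 in ECs and at most 185 in MΦs. Nr2f2, the factor of venous identity, scored 384, 549, 379, and 484 in ECs and 92, 34, 1760, and 7504 in β cells, where the libraries with stromal markers were above the ECs. Without the libraries that stand apart, 20 of the 30 factors were higher in ECs than in both, with Klf2 and Nr2f2 among those added and Bcl6b lost.

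Most genes of the junctions between ECs were higher in ECs, and occludin was lower. Of 18 junction genes, 14 were higher in ECs than in both and 1 was lower, with median log2 differences of 2.81 and 4.47. Esam and Jam2, adhesion molecules of endothelial tight junctions, scored 14072 to 17176 and 29824 to 41164 in ECs and at most 53 and 73 in MΦs. In β cells Esam was less low, at 253, 250, 920, and 2865. Tjp1 (ZO-1), the scaffold below the junction, was higher in ECs than in β cells by 1.74 and than in MΦs by 6.46 on the log2 scale, and its call was lost with β cell replicates 1 and 2 only. Cldn5 (claudin 5), which seals the blood-brain barrier, scored 47, 80, 58, and 90 in ECs, 1, 1, 5, and 1 in β cells, and the lowest score in all 4 MΦ samples. The member that was lower was Ocln (occludin), at 19, 48, 8, and 4 in ECs, 798 to 1342 in β cells, and 26 to 558 in MΦs, so that ECs and MΦs overlapped. F11r (JAM-A) scored 4373 to 5539 in ECs and 5175 to 6892 in MΦs, and it did not pass the test there.

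The genes of fenestrae and caveolae were mostly higher in ECs. Of 10 genes, 8 were higher in ECs than in both, with median log2 differences of 5.54 and 7.06. Plvap, the protein of the diaphragms that span fenestrae, scored 26298, 36313, 37203, and 34114 in ECs, 200, 79, 222, and 165 in β cells, and 59, 42, 142, and 39 in MΦs. ECs lay above all other samples and were higher by 7.73 than β cells (limma, adjusted p = 1.08e-07) and by 9.06 than MΦs (adjusted p = 1.46e-08). Cav1, which builds caveolae, scored 13578, 17191, 19556, and 18054 in ECs, 82, 26, 708, and 2019 in β cells, and 32 to 67 in MΦs. Its coat partners Ptrf, Sdpr, and Prkcdbp and the neck protein Ehd2 were higher too. Their β cell scores were highest in replicates 3 and 4, as for Ptrf at 20, 34, 1327, and 2894. Pacsin2 and Pacsin3, which bend membrane at caveolae, were the 2 members not called, and Pacsin2 was lower in ECs than in MΦs by 1.46.

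ECs carried Notch receptors, ligands, and targets. Of 17 genes of the pathway, 9 were higher in ECs than in both and none was lower, with median log2 differences of 3.97 and 2.48. Notch1 and Notch4 were the receptors of ECs, with Notch1 at 16495, 15933, 17677, and 16771 in ECs and 985 to 4931 in all others. Notch2 scored 641 to 993 in ECs and 25806 to 35538 in MΦs, a log2 difference of -5.15 (limma, adjusted p = 6.84e-05). Dll4, the ligand of arterial and tip cells, scored 5054, 5636, 6110, and 5159 in ECs, 18 to 97 in β cells, and 7 to 22 in MΦs. The targets Hey1, Hey2, and Nrarp were higher in ECs than in both, and so was Hes1, although its EC replicate 1 at 825 lay below β cell replicate 4 at 971. Heyl and Notch3, which are known from pericytes, were not called and reached 12191 and 28465 in β cell replicate 4.

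Arterial, venous, and tip cell genes were all found among the EC genes. Of 10 arterial genes tested, 7 were higher in ECs than in both, of 8 venous genes 4, and of 11 tip cell genes 7, with none lower. Their median log2 differences were 4.74 and 7.85, 4.91 and 2.84, and 4.31 and 4.13 from β cells and MΦs. The call of the venous gene Selp (P-selectin) was lost without the libraries that stand apart. Efnb2, the arterial ephrin, scored 14937, 15449, 20456, and 16048 in ECs and at most 695 elsewhere, and its venous receptor Ephb4 scored 12205, 10747, 11543, and 10408 in ECs and at most 958 elsewhere. Sema3g, an arterial semaphorin, scored 4212 to 4753 in ECs and at most 164 in other samples. Aplnr, the apelin receptor of veins and capillaries, and its ligand gene Apln of tip cells were both higher in ECs, at 11201 to 14675 and 799 to 1057. Pdgfb, which recruits pericytes, scored 12561, 11204, 10905, and 11830 in ECs, 380 to 1038 in β cells, and 3993 to 5416 in MΦs. Cxcr4, another tip cell gene, was higher in ECs than in β cells by 4.06 and lower than in MΦs by 2.34 on the log2 scale. Such bulk scores do not say whether the same cells carried arterial and venous genes.

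ECs carried most of the vascular basement membrane genes. Of 23 tested, 15 were higher in ECs than in both and none was lower, with median log2 differences of 3.87 and 5.87. Hspg2 (perlecan), the heparan sulphate proteoglycan of basement membranes, scored 124366, 126260, 118122, and 123896 in ECs, 467, 241, 5675, and 14585 in β cells, and 13 to 708 in MΦs. The laminin chains Lama4 and Lama5, which make the endothelial laminins with Lamb1 and Lamc1, scored 30094 to 33505 and 12858 to 14043 in ECs and at most 426 and 115 in MΦs. Lama3 scored 82092, 61099, 56252, and 71405 in ECs and at most 435 elsewhere, while Lamb3, a partner of it in the laminin of epithelia, scored at most 34 in ECs. The type IV collagen chains were split. Col4a1, Col4a2, and Col4a3 were higher in ECs than in both, Col4a4 was higher than in MΦs only, and Col4a5 scored 3, 21, 4, and 15 in ECs against 82 to 1206 in β cells. Many of these genes were also high in the β cell libraries with stromal markers, as for Sparc at 78566, 99882, 105951, and 95348 in ECs and 571, 168, 22073, and 67140 in β cells. With β cell replicates 1 and 2 only, 17 were higher in ECs than in both, and with replicates 3 and 4 only, 11.

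Many genes of signalling ligands, secreted or membrane-bound, were higher in ECs. Of 38 tested, 19 were higher in ECs than in both and 1, Hgf, was lower, with median log2 differences of 3.32 and 4.04. Without the libraries that stand apart 23 were higher, with Ctgf, Cyr61, and Adm among those added, and none was lower, and with β cell replicates 3 and 4 as the only β cells 17 were higher and 5 lower. Kitl (stem cell factor) scored 52555, 37167, 33412, and 45905 in ECs, 185, 8, 1963, and 6478 in β cells, and 366 to 935 in MΦs. Thbs1 (thrombospondin 1), an inhibitor of vessel growth, scored 66458, 71287, 69568, and 68598 in ECs and at most 11414 elsewhere. Edn1 (endothelin 1), a vasoconstrictor, scored 563, 1001, 620, and 814 in ECs, the lowest score in all 4 β cell samples, and 19 to 134 in MΦs. Sema3f, Nov, Fgf1, and Efna1 were higher in ECs than in MΦs by 8.83 to 10.32 on the log2 scale. Hgf (hepatocyte growth factor) scored 11, 9, 2, and 12 in ECs, 44, 13, 823, and 1070 in β cells, and 2478 to 3648 in MΦs. ECs lay below all other samples, but the call against β cells was lost without the libraries that stand apart. Ctgf, Cyr61, and Adm were not called with all 12 samples. In β cells, Ctgf (connective tissue growth factor) scored 18 and 10 in replicates 1 and 2 and 3894 and 9701 in replicates 3 and 4, against 1702, 1909, 1752, and 1848 in ECs.

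About as many BMP and G protein-coupled signalling genes were higher in ECs as were not. Of 16 BMP and TGF-β receptor and feedback genes, 8 were higher in ECs than in both, with median log2 differences of 2.95 and 2.44. Bmpr2, the type II BMP receptor, scored 82147, 87399, 96381, and 105058 in ECs and at most 22491 elsewhere, and the targets Id1, Id3, and Smad6 were higher as well. Tgfbr1 scored 2591 to 2948 in ECs and 37296 to 57484 in MΦs. Of 17 genes of G protein-coupled receptors and of their partners Ramp2 and Ramp3, 10 were higher in ECs than in both and 1 was lower, with medians of 5.01 and 4.44. Eltd1, an adhesion receptor of endothelium, scored 73053, 69844, 68657, and 82258 in ECs and at most 320 elsewhere. S1pr1, which tightens junctions in response to sphingosine 1-phosphate, scored 36649, 34014, 32511, and 33818 in ECs, at most 302 in β cells, and 687 to 1274 in MΦs. P2ry1, an ADP receptor, was lower in ECs than in both, at 2, 1, 1, and 2 against 5472, 6585, 1857, and 1700 in β cells and 113, 47, 302, and 143 in MΦs.

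Vasomotor and coagulation genes divided between those of ECs alone and those shared with MΦs. Of 18, 7 were higher in ECs than in both, with median log2 differences of 4.09 and 2.46, and 10 were without the libraries that stand apart. The count was 11 with β cell replicates 1 and 2 as the only β cells and 9, with 2 lower, with replicates 3 and 4. Nos3, the endothelial nitric oxide synthase, scored 1808, 2301, 2373, and 2077 in ECs, 1 to 46 in β cells, and 2 to 22 in MΦs. Thbd (thrombomodulin) and Ace (angiotensin converting enzyme) scored 37278 to 49997 and 23992 to 29343 in ECs and at most 1637 and 4564 in any other sample. Entpd1 (CD39), which degrades ATP, scored 15905 to 17828 in ECs and 16322 to 22708 in MΦs and did not pass the test between them. The endothelin receptor Ednrb, of the receptors above, scored 53351 to 56762 in ECs, while Ednra, the receptor of smooth muscle, scored 116 to 414.

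**Figure D4:**
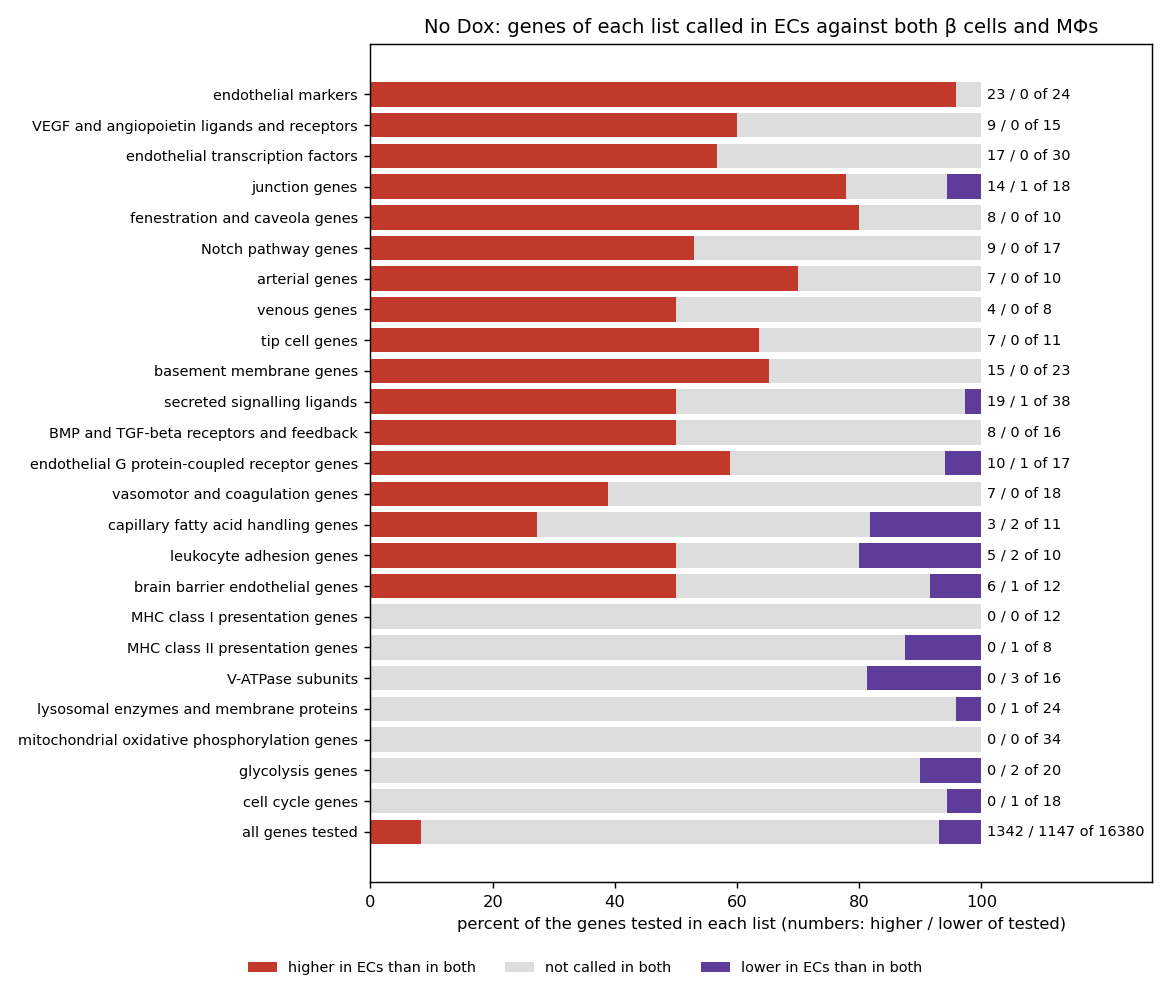
Share of the genes tested in each list (x axis, percent) that was called higher in ECs than in both β cells and MΦs (red), lower than in both (purple), or neither (grey), with the counts at the right. Of the endothelial markers 23 of 24 were higher, against 1342 of 16380 over all genes tested, while none of the 34 oxidative phosphorylation genes was called in either direction.

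Genes of capillary lipid uptake went in both directions. Of 11, 3 were higher in ECs than in both and 2 were lower, with median log2 differences of 1.68 and 1.65. With β cell replicates 1 and 2 only, 5 were higher. Gpihbp1, which carries lipoprotein lipase across ECs, scored 1585, 2040, 2347, and 2428 in ECs, 1, 1, 40, and 1 in β cells, and 1, 22, 1, and 2 in MΦs. The lipase itself, Lpl, scored 80, 184, 104, and 76 in ECs, 1195, 2093, 3819, and 7009 in β cells, and 2823, 3119, 3481, and 2776 in MΦs. ECs were thus above all others for the carrier and below all others for the enzyme, with log2 differences for Lpl of -4.77 ± 0.46 from β cells and -4.86 ± 0.46 from MΦs (SE, limma, adjusted p = 7.46e-06 and 4.6e-06). Fabp4 and Fabp5, intracellular fatty acid carriers, were higher in ECs, while Slc27a1, a fatty acid transporter, was lower, at 38 to 99 in ECs and 408 to 1949 elsewhere. Cd36, the fatty acid translocase, scored 1598 to 3119 in ECs and 6709 to 11818 in MΦs, without overlap. The log2 difference of -1.83 did not pass the test (limma, adjusted p = 0.246), whose spread includes that of the β cells.

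Leukocyte adhesion genes were also split. Of 10, 5 were higher in ECs than in both and 2 were lower, with medians of 2.77 and 1.38. Selp was among the 5, and 4 remained without the libraries that stand apart. Podxl and Cd34, sialomucins of the luminal surface, scored 70172 to 77929 and 15428 to 18994 in ECs and at most 581 and 284 elsewhere. Vcam1, Icam1, and Sele (E-selectin), adhesion molecules known from activated endothelium, were not called against both. Vcam1 scored 207, 450, 315, and 224 in ECs and 3745 to 7484 in MΦs. Icam1 scored 362 to 390 in ECs and 4016 to 5186 in MΦs, and Sele scored 12 to 47 in ECs. Cd44 and Alcam were lower in ECs than in both. Cd44, a hyaluronan receptor, scored 21, 43, 35, and 75 in ECs, 2767, 2205, 2778, and 4154 in β cells, and 33324 to 46193 in MΦs, by log2 differences of -6.17 and -9.88 (limma, adjusted p = 9.3e-08 and 1.43e-09).

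Part of the gene set known from ECs of the brain barrier was higher in islet ECs. Of 12 genes tested, 6 were higher than in both and 1, Ocln, was lower, with medians of 2.23 and 1.96. The 6 were the efflux pumps Abcb1a and Abcg2 and the Wnt receptor complex and target genes Fzd4, Lrp5, Tspan12, and Apcdd1. Tspan12 scored 13825, 12189, 13295, and 13600 in ECs, 94, 118, 1135, and 3376 in β cells, and 22 to 40 in MΦs. Mfsd2a, the lipid transporter that marks brain ECs, and Foxq1 were at the lowest score of 1 in all 4 EC samples, and Slco1a4 and Slco1c1 scored at most 16. Slc2a1, the glucose transporter of that barrier, scored 1394 to 1650 in ECs and 1051 to 1661 in MΦs.

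The genes that ECs lacked, and β cells and MΦs had in common, were led by Hepacam2. This adhesion protein gene at mm9 chr6:3407096-3444498 scored 42, 5, 1, and 11 in ECs, 13616, 14950, 5922, and 3702 in β cells, and 10272, 7698, 8968, and 7305 in MΦs. As the ranking required, ECs lay below all other samples, by 9.85 ± 0.76 (SE) on the log2 scale from β cells (limma, adjusted p = 1.56e-06) and 9.90 ± 0.76 from MΦs (adjusted p = 8.11e-07). Rnf180 and Rnf150, both ubiquitin ligases with a RING domain, scored at most 40 and 96 in ECs and at least 2203 and 7151 elsewhere. Rasgrf1, an activator of Ras, scored 9, 22, 1, and 2 in ECs, 1522 to 6409 in β cells, and 6610 to 11791 in MΦs. Rap1gap2, which switches off Rap1, scored 42, 276, 28, and 23 in ECs and 6653 to 28055 elsewhere.

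Slc16a10, a transporter of aromatic amino acids, scored 35, 37, 22, and 50 in ECs, 21711, 22553, 13427, and 6281 in β cells, and 8627, 7596, 13505, and 7125 in MΦs, a log2 difference of -8.65 ± 0.39 from β cells and -7.97 ± 0.39 from MΦs (SE, limma, adjusted p = 3.71e-08 and 2.4e-08). Dpp4, the peptidase that degrades incretin hormones, scored 4, 9, 14, and 11 in ECs and 1130 to 5774 in the other samples. Emb (embigin), a partner of lactate transporters, scored 12 to 35 in ECs and 2335 to 17964 elsewhere. Negr1 and Dscam, neural adhesion molecules, scored at most 17 and 14 in ECs and at least 2129 and 597 elsewhere. Gabbr2, a subunit of the GABA-B receptor, scored 22, 12, 7, and 1 in ECs, 31043, 29408, 8153, and 2518 in β cells, and 1305 to 1771 in MΦs.

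Spint1, an inhibitor of the proteases that activate hepatocyte growth factor, scored 2, 89, 2, and 1 in ECs, with the high value in the replicate with acinar markers. Pkib, an inhibitor of protein kinase A, and Fhad1 scored at most 15 and 16 in ECs. Med12l, a Mediator subunit gene at 3, 23, 4, and 10 in ECs and 1063 to 4800 elsewhere, holds or meets 7 other genes in its span, 6 of them on the other strand. Among these, chosen after their values were seen, are P2ry12 and P2ry13, at 1221 and 1392 in MΦ replicate 1 and at 2 and 1 in EC replicate 1, and Igsf10, at 330, 217, 1873, and 6852 in β cells, so that its β cell and MΦ scores are both uncertain. Each of the 15 genes of this ranking had EC scores at 1wk WD that stayed low, from 1 to 8 for Dpp4 up to 68 to 277 for Rnf150.

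**Figure D5:**
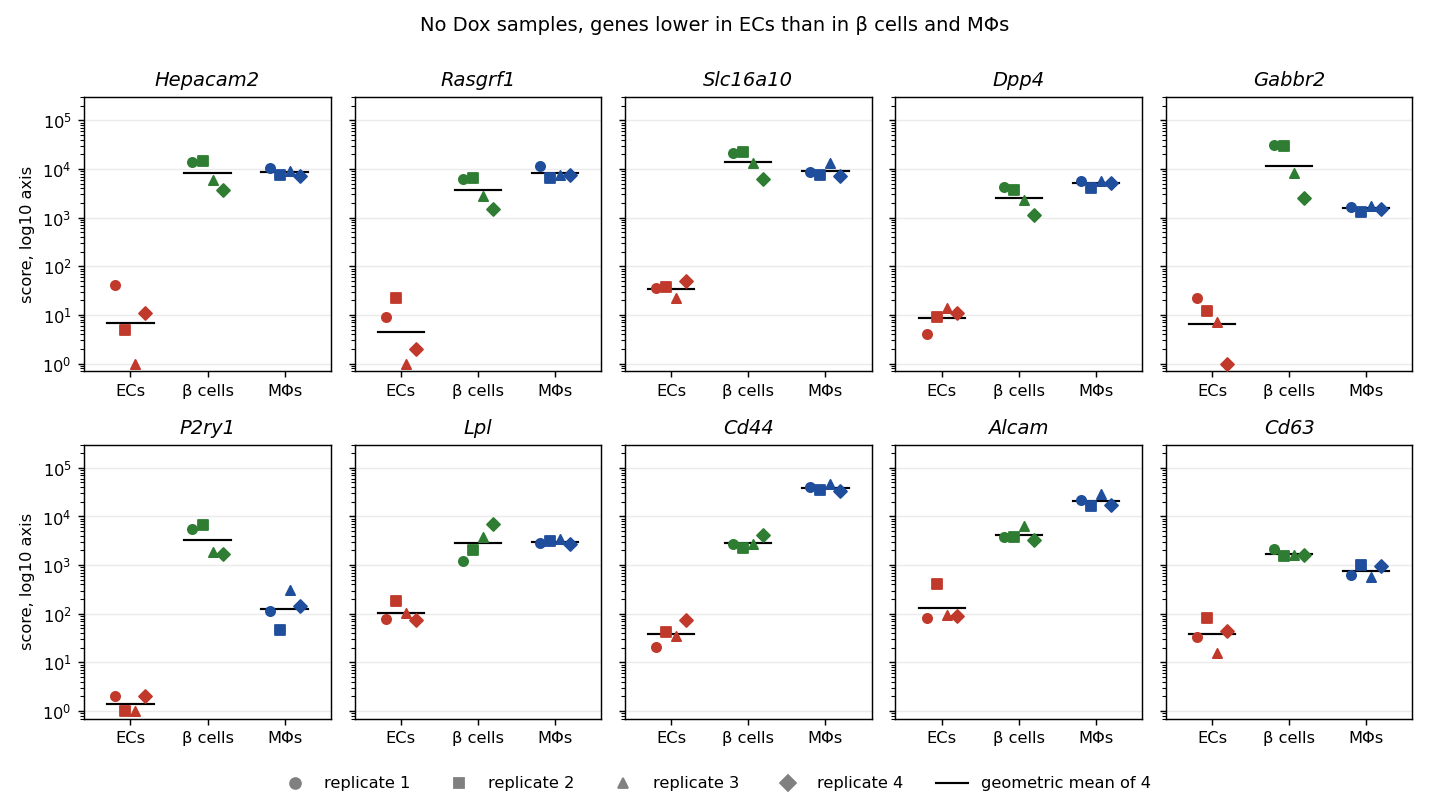
Scores (log10 axis) of 10 genes lower in ECs in each of the 12 No Dox samples, with a symbol for each replicate and a line at the geometric mean of the 4 samples of a cell type. In every panel the 4 EC samples lie below the 8 others, as with Hepacam2 at 1 to 42 in ECs and at least 3702 elsewhere.

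Antigen presentation divided by class. ECs were higher than β cells in 11 of 12 class I presentation genes, with a median log2 difference of 1.93, and none was called against MΦs, where the median was -0.12. Over all genes tested, 16.5% were higher in ECs than in β cells and 17.6% were lower than in MΦs. Psmb10, of class I presentation, was higher in ECs than in both without the libraries that stand apart. B2m, the light chain of class I molecules, scored 48501, 61358, 81320, and 77341 in ECs, 611, 485, 6686, and 16705 in β cells, and 44126 to 78167 in MΦs. All 8 class II genes were lower in ECs than in MΦs, with medians of -8.48 there and -1.34 from β cells, and 1, H2-Eb1, was lower than in both, a call not kept without the libraries that stand apart. With β cell replicates 3 and 4 only, 7 were lower than in both. Cd74, the invariant chain, scored 652, 652, 683, and 876 in ECs and 577723 to 1012437 in MΦs, a log2 difference of -10.16 (limma, adjusted p = 9.88e-06). In β cells Cd74 scored 1104 and 609 in replicates 1 and 2 and 19706 and 34650 in replicates 3 and 4.

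None of 34 oxidative phosphorylation genes was called in ECs against both in either direction, with medians of -0.31 and 0.08. The lists that follow had shares of lower genes not far from that over all genes tested (7%), apart from the V-ATPase subunits. Of 20 glycolysis genes 2 were lower in ECs than in both, Hk2 and Ldhb, with medians over the list of 0.16 and -0.26. Neither call was kept without the libraries that stand apart, where 1 gene of the list, Slc16a1, was higher. Of 24 lysosomal genes 17 were lower in ECs than in MΦs, where the median was -1.72 against 0.26 from β cells. Over all genes tested, 17.6% were lower than in MΦs. Cd63, a tetraspanin of late endosomes, was lower than in both, at 34, 82, 16, and 45 in ECs, 1513 to 2105 in β cells, and 573 to 999 in MΦs. Of 16 V-ATPase subunits, 3 were lower in ECs than in both, Atp6v0b, Atp6v1b2, and Atp6ap2, with medians of -0.65 and -0.60. Of 18 cell cycle genes 1 was lower, Rrm2, and none was higher, with medians of 0.01 and -0.63. The call of Rrm2 was lost with β cell replicates 1 and 2 only, and with replicates 3 and 4 as the only β cells 3 cell cycle genes and 3 lysosomal genes were lower.

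With all 12 samples, markers of other cell types were not an EC signature, with the lymphatic list in part an exception. Of 6 lymphatic endothelial markers tested, Flt4 and Mmrn1 were higher in ECs than in both, with Mmrn1 at 242, 234, 336, and 501 in ECs, the lowest score in all 4 β cell samples, and 1 to 2 in MΦs. Prox1, the factor that fixes lymphatic identity and is also a gene of endocrine cells, scored 699 to 913 in ECs and 3220 to 7744 in β cells. Lyve1 scored 166 to 414 in ECs and 309 to 648 in MΦs, and Pdpn (podoplanin) scored 1 to 5 in ECs. The median log2 differences of these 6 were 0.37 and 2.51.

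None of the β cell, macrophage, islet endocrine, ductal, lymphocyte, or Schwann cell markers was higher in ECs than in both. Lower than in both were 3 of 20 β cell markers, 4 of 20 macrophage markers, 5 of 8 endocrine markers, 3 of 10 ductal markers, none of 12 lymphocyte markers, and 1 of 7 Schwann cell markers. Over all genes tested, 7% were lower than in both. Which β cell libraries entered changed several of these counts. With replicates 3 and 4 as the only β cells, 12 macrophage, 5 β cell, 3 lymphocyte, and 6 of 19 stromal markers were lower in ECs than in both. Of all 16398 genes tested there, 1590 were. Without the libraries that stand apart, 2 macrophage, 3 endocrine, and 2 ductal markers were, after the calls of Mpeg1, Lyz2, Gcg, Sst, and Krt8 were lost, and among β cell markers the call of Iapp was lost. At 1wk WD, with the β cell samples that carried Pdgfrb, 13 macrophage markers were. The summed EC scores were 1617 to 2733 for the endocrine list, 279 to 1452 for the ductal list, 140 to 231 for the lymphocyte list, and 140 to 216 for the Schwann cell list. Glucagon (Gcg) and somatostatin (Sst) were highest among ECs in replicate 2, at 619 and 177, the replicate that also held the most acinar markers. The pericyte and stromal list summed to 7160 to 16184 in ECs and 3958 to 7267 in MΦs. Without the libraries that stand apart, 4 of its 19 members were higher in ECs than in both, where 1632 of all 16125 genes tested were. With β cell replicates 1 and 2 as the only β cells, 6 of the 19 were. Of 12 platelet and erythroid markers, which summed to 726 to 1042 in ECs, Ppbp was higher in ECs than in both, at 51, 30, 43, and 28 against the lowest score in all 4 β cell samples and 4, 1, 1, and 32 in MΦs. EC replicates 2 and 4 lay below MΦ replicate 4, and 8.19% of all genes tested were higher in ECs than in both. Without the libraries that stand apart, 2 members were higher, Ppbp and Hbb-b2, and with MΦ replicate 4 put back none was. The part of such other cells in the EC scores was not tested.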

How the data were processed

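RNA of sorted islet cells was amplified (NuGEN Ovation) and sequenced. Per the labels and the study's methods, the authors aligned reads to mm9 with TopHat2 2.0 and scaled them by TMM in Avadis NGS. Each deposited score is such a scaled value without decimals, none below 1, so that read depth is unknown and its precision could not be given. The annotation version and the strand setting of the counting are not given in the sources used here. Of 38 value columns, 6 could not be matched to a sample and were not used.

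Groups came from the labels. Genes with a mean score of 20 or more in any of the 3 cell types were tested on log2(score + 1) with limma 3.58.1 in R 4.3.3, in 1 fit of the 12 No Dox samples with a mean-variance trend. This scale understates changes of low scores. Calls needed a fold change of 2 and a Benjamini-Hochberg adjusted p under 0.05 in each contrast. Counts, sums, and figures were made in Python 3.11.15 (matplotlib 3.10.9, scipy 1.17.1, numpy 2.4.6, pandas 2.3.3). Tested on simulated data (15292 genes), calls of ECs against both recovered 42 of 100 genes changed by 1.5 and 69 of 100 changed by 3 on the log2 scale, with 1 false call. Only 200 genes were changed there, and all others had the same mean in the 3 cell types. Far more genes differ in the real samples, so that these rates do not carry over to them.

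The members and lists were chosen with earlier results of these data known. Named were Kdr, Cdh5, the 15 genes highest and the 15 lowest in ECs by the smaller log2 difference among genes called against both, with no overlap between ECs and other samples and a mean score of 1000 or more (in ECs, or in each of the others), and list members. These lists held 536 matched genes. Alternatives changed the pseudocount, filter, scaling, trend, weights, fold, replicate block, samples fitted, and each replicate. Coordinates are mm9, and promoters are RefSeq GRCm38.p6, with windows for 11257 of the 16380 genes tested. Some genes and 1 gene list are not reported here.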

Additional observations from a re-analysis of the deposited data

Results flagged for a closer look

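In groups of 4 samples, 1 sample was flagged as apart from the other 3 in 8 of 126 groups tested, where chance flags about 1 in 20 for normal values. That rate does not hold where the other 3 samples tie at the lowest score, since any other value is then flagged. This was so for Robo3, for Ces2e, and for Gpihbp1 in β cells. Robo3 scored 3 in β cell replicate 3 and 1 in the other β cell samples. Ces2e scored 28 in MΦ replicate 2 and 1 in the other MΦ samples. Gpihbp1 scored 40 in β cell replicate 3 and 22 in MΦ replicate 2, against at most 2 in the other samples of these groups. Esm1 was the reverse case, with 16 in β cell replicate 4 and 167 to 191 in the other β cells. Spint1 scored 89 in EC replicate 2 and 1 to 2 in the other ECs. The summed acinar markers reached 2219829 in the same EC replicate 2. The summed lymphatic endothelial markers were lowest in β cell replicate 4, at 4779.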

How the results depend on the processing

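Genes higher and lower in ECs than in both numbered 1310 and 1161 at a pseudocount of 0.1, 1394 and 946 at 20, 1402 and 1112 without a filter, 1164 and 1038 at a mean score of 200 or more, 1503 and 870 after quantile normalization, and 1621 and 1179 with array weights. At a fold change of 4 the counts fell by construction, to 905 and 762, and genes higher in ECs than in β cells to 1659. Leaving out 1 replicate gave 1182 to 1496 higher and 967 to 1296 lower. With β cell replicates 1 and 2 only, 1637 were higher and 1142 lower, and with replicates 3 and 4 only, 1263 were higher and 1590 lower. With the libraries that stand apart left out, chosen after seeing the data, 1632 were higher and 1050 lower, and 1613 and 1069 with MΦ replicate 4 put back. The 31 genes named by rank or as markers kept their direction and their side of the threshold under the settings tried for them. Those named by rank were chosen from these same samples for large differences without overlap, so that this is no added support. Deviations correlated over 0.1 in 2 of 12 same-number pairs, from -0.194 to 0.384, and in 7 of 36 different-number pairs, from -0.302 to 0.205. The highest was EC replicate 2 with MΦ replicate 2. Whether samples of the same number came from the same islets cannot be told from these values. With a replicate block, 1316 genes were higher and 1116 lower than in both, 2649 higher and 3357 lower than in β cells, and 2547 higher and 2849 lower than in MΦs. Of the calls against both, 1300 and 1079 were shared with the fit without the block. Unknown depth limits all low scores, where a step of 1 is a large log2 change.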
